A study of Rattus norvegicus with 5 samples.

Results

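H4K5Ac ChIP-Seq libraries from the dorsal striatum of rats given a methamphetamine (METH) challenge were compared between animals pretreated with METH (MM) and animals pretreated with saline (SM), with the input library as background. These are 3 of the 5 libraries of the series, and the comparison asks whether earlier METH exposure changed the distribution of H4K5Ac after the same acute dose. Male Sprague-Dawley rats received intraperitoneal saline or METH for 2 weeks, and 16 to 18 h after the last of these injections both the SM and the MM rats received METH at 5 mg/kg. Tissue was taken 2 h later. The SM library pooled 3 animals, the MM library pooled 4 animals, and the input library, which was sequenced without precipitation, pooled 4 samples whose treatment group the labels do not give. The other ChIP libraries came from rats challenged with saline after saline (SS, 4 animals) or METH (MS, 3 animals) pretreatment. They were used to choose windows and as a second comparison of METH with saline pretreatment. The tags were counted in 2558150 non-overlapping windows of 1 kb on chromosomes 1 to 20, and successive windows were added into 255823 windows of 10 kb and 25592 windows of 100 kb.

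Histone H4 is one of the core proteins of the nucleosome, and acetylation of lysine 5 on its tail removes a positive charge and creates a binding site for bromodomain proteins. The mark is placed by histone acetyltransferases, removed by histone deacetylases and is found at promoters and enhancers of active genes. METH enters dopamine terminals through the dopamine transporter, empties vesicular stores and releases dopamine onto the medium spiny neurons that form most of the striatum. Dopamine receptor signalling in these neurons induces immediate early genes within hours, and repeated exposure alters this induction.

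On chromosomes 1 to 20 the SM library held 12358680 tags, MM held 9107139 and the input held 17471499, so that SM was 1.36 times as deep as MM. The median 1 kb window contained 4 tags in SM, 3 in MM and 7 in the input. Tag rates are given as tags per 1000000 tags on these chromosomes (RPM), or per kb and 1000000 tags (RPKM), and ratios of RPM have exact conditional binomial 95% intervals. Chromatin was precipitated with a polyclonal antibody against H4 acetylated at lysine 5, and coordinates are those of build rn4. Tag counts by window hold no gene names, so the labelled tissue could not be checked against its marker genes. The tags were amplified by PCR and carry no molecular identifiers, so the intervals cover counting error only. Each group was 1 pooled library, which leaves no spread between animals, no p-value, and no way to tell a difference between pretreatments from one between pools or precipitations. In tissue of mixed cell types, fewer cells carrying the mark and less of the mark per cell cannot be told apart.

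The MM and SM libraries were close to each other over most of the genome. In 100 kb windows with at least 400 tags in SM and MM together (22241 windows), the median MM to SM ratio was 1.00, the central 90% of windows lay between 0.870 and 1.18, and 70.8% of windows were within 10% of equality. At least 1.3-fold higher levels in MM were found in 146 of these windows (0.656%) and at least 1.3-fold lower levels in 51 (0.229%). The interval lay above 1 in 6.40% of windows and below 1 in 6.06%. The excess of higher over lower windows depended on how the libraries were scaled. When the sparser 10 kb windows, those under the median in SM and MM together, set the scale, 95 windows were higher and 71 were lower. The plot of 100 kb ratios shows a single continuous distribution with a few windows far out on either side.

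**Figure D1:**
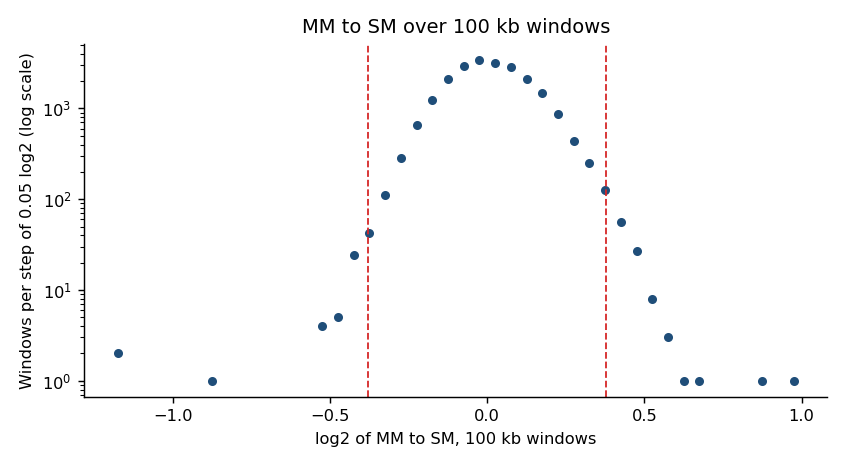
Number of 100 kb windows (y axis, log scale) by their log2 MM to SM ratio (x axis), with dashed lines at the 1.3-fold limits. Most of the 22241 windows lie near 0, and 3 windows on the far left, all on chromosome 3, lie below the rest.

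Smaller windows gave the same central value with a wider counting spread. Among 205501 windows of 10 kb with at least 40 tags, 1586 (0.772%) were at least 2-fold higher in MM and 1640 (0.798%) were at least 2-fold lower. Among 184568 windows of 1 kb with at least 20 tags, 676 (0.366%) were at least 4-fold higher and 2082 (1.13%) were at least 4-fold lower. This imbalance at 1 kb depended on the depth of the libraries. When a random draw of SM tags as large as the MM library was used, 690 windows were higher and 753 were lower. The higher windows were 24.5% of those past the limits with all tags and 47.8% with the draw. The counts at 10 kb also depended on depth, and with the same draw 2025 windows were higher and 1556 were lower. Here the higher share went from 49.2% to 56.5%. The minimum number of tags was applied again to the drawn counts, so fewer windows could pass it, and shares of windows tested are not given for the draw. The median ratio was 1.00 at 10 kb and 0.995 at 1 kb. The spread of MM given the sum of both libraries exceeded the binomial variance 1.41 times at 1 kb, 1.40 times at 10 kb and 1.70 times at 100 kb.

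The windows past the limits at 10 and 100 kb held fewer input tags than those tested at large. At 10 kb the median input count was 59 tags in the higher and 62 in the lower windows, compared with 78 in all windows tested, and at 1 kb it was 11 and 12, compared with 12. At 100 kb the median input count was 531 tags in the 146 higher windows of 100 kb and 561 in the 51 lower ones, compared with 732 in all windows tested. Pooled over the higher windows, the RPKM was 0.218 in SM, 0.295 in MM, 0.273 in SS, 0.259 in MS and 0.312 in the input. Pooled over the lower windows it was 0.365 in SM, 0.266 in MM, 0.318 in SS, 0.302 in MS and 0.377 in the input. In both sets the saline-challenged libraries lay between SM and MM, which had been selected as far apart. The higher windows were scattered, with 140 of 143 runs being a single window, and no chromosome had more than 1.05% of its tested windows among them.

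To see how unequal MM and SM were beside other pairs, the 4 ChIP libraries were thinned to 5728788 tags each. The spread between MM and SM then exceeded counting error 1.23 times at 1 kb, 1.22 times at 10 kb and 1.39 times at 100 kb, the lowest of the 6 pairs of libraries at each of these sizes. The other 5 pairs lay between 1.26 and 1.36 at 1 kb, between 1.31 and 1.36 at 10 kb and between 1.505 and 2.44 at 100 kb. At 1 Mb the value was 2.40 for MM and SM, above the 2.14 of MM and MS and below the 3.44 to 10.1 of the other 4 pairs. The pairs share libraries, and no test was made between them. SM and MM were the deepest ChIP libraries, so thinning took more tags from them than from SS, and none from MS. The part of this in the order of the pairs was not tested.

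Where the SS library was enriched in H4K5Ac, the RPKM was higher in MM than in SM. In SS, 7363 windows of 1 kb were enriched, meaning that a Poisson p of at most 1e-05 was reached against whichever was highest, the genome mean, the scaled input count of the window or the scaled input mean over 11 kb. SS takes no part in the comparison, so chance variation in SM or MM did not choose these windows. They averaged 1.98 RPKM in SM, 2.15 in MM and 0.684 in the input, which is 2.89 times the input level in SM (2.87 to 2.92) and 3.14 times in MM (3.12 to 3.17). The MM to SM ratio was 1.086 (1.078 to 1.093). In windows more than 2 kb from any window enriched in SS or MS it was 0.997 (0.997 to 0.998). That set held 94.3% of the SM tags and 94.0% of the MM tags, so scaling by totals kept its ratio near 1. With the scale set by the sparser 10 kb windows, the ratio in SS-enriched windows was 1.069 (1.061 to 1.076).

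The excess was small at each window and spread over many of them. The MM rate was higher in 4247 of the 7363 windows (57.7%). Of the 6847 enriched windows with at least 20 tags, 58.3% were higher in MM, with a median ratio of 1.07 and quartiles of 0.848 and 1.36. Among 157012 windows with at least 20 tags away from enriched windows, 48.4% were higher in MM and the median ratio was 0.969. These were a small part of the 2509457 windows away from enriched ones, kept by their SM and MM tags together. The pooled ratio of all 2509457 was 0.997. Changes of 4-fold were rare in these enriched windows, with 3 higher (0.0438%) and 10 lower (0.146%). The shares were below the 0.366% and 1.13% of all 1 kb windows with at least 20 tags. The enriched windows held more tags each, which narrows the counting spread that contributes to such calls.

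The ratio was highest at the centre of the enriched windows and declined to the level of the surroundings within 3 kb. At 1 kb on either side it was 1.050 (1.041 to 1.059) and 1.047 (1.038 to 1.056), and at 2 kb it was 1.021 on both sides. At 3 kb the intervals of both sides included 1. The surroundings at 6 to 10 kb had 0.745 RPKM in SM and 0.747 in MM. Above these surroundings the enriched windows held 1.23 RPKM in SM and 1.40 in MM, a ratio of 1.14. The input rose to 0.684 at the centre from 0.536 in the surroundings, a smaller rise than in either ChIP library.

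**Figure D2:**
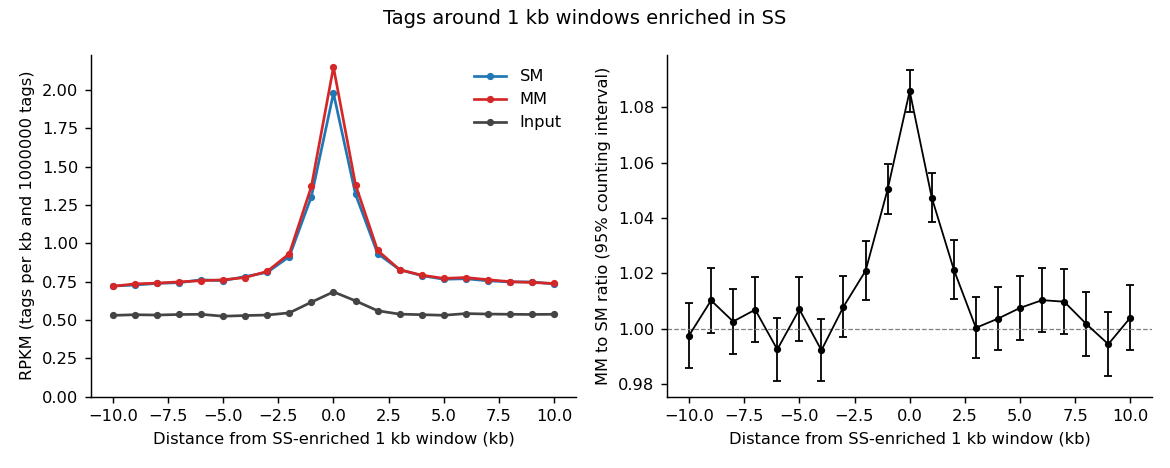
Left, RPKM in SM, MM and input by distance in kb from the 7363 windows of 1 kb enriched in SS. Right, the MM to SM ratio at each distance with its 95% counting interval, which reaches 1.086 at the centre and includes 1 from 3 kb outwards on both sides.

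The excess was also found when the windows were chosen in another way. In the 6422 windows enriched in MS the ratio was 1.085 (1.077 to 1.093), and in the 2252 windows enriched in both SS and MS it was 1.119 (1.106 to 1.131). With a Poisson threshold of 1e-07 the ratio in SS-enriched windows was 1.097 (3078 windows), and with 0.001 it was 1.060 (24255 windows). Windows that stood alone had a ratio of 1.082 (1.073 to 1.090), pairs of adjacent windows 1.108 (1.091 to 1.125) and runs of 3 or more 1.058 (1.026 to 1.090). In windows enriched in both SS and MS and without excess input, ranked into 4 equal classes of 551 by their SS and MS level above input, the ratio lay between 1.11 and 1.13 in each class. The average in MM rose from 2.16 RPKM in the lowest class to 3.30 in the highest, and in SM from 1.91 to 2.94.

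The most strongly enriched windows had intervals that overlapped one another. These windows were picked after the data were seen, by their SS and MS level above input. The strongest, at chr16:59044001-59045000, had 57 tags in SM and 62 in MM, or 4.61 and 6.81 RPM, against 1.14 in the input, a ratio of 1.48 (1.01 to 2.15). At chr1:16019001-16020000, SM held 45 tags and MM 61, a ratio of 1.84 (1.23 to 2.77), and SS stood at 6.73 RPM, close to the 6.70 of MM. The second, chr3:78681001-78682000 had 45 tags in SM and 35 in MM, a ratio of 1.06 (0.659 to 1.68), with 8.20 RPM in MS. The MM rate was above the SM rate in each of the 8 strongest windows, and the interval excluded 1 in the first and the third of them only.

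At equal depth, MM contained more enriched windows than SM, although SM contained more at full depth. With SM thinned to 9107139 tags in 5 random draws, 7874 to 7996 windows of SM were enriched over input, compared with 10261 in MM, a ratio of 1.283 to 1.303. At full depth SM had 12273, which made the ratio 0.836. The size of the difference depended on the background. With the input scaled on the sparser 10 kb windows, the ratio at equal depth was 1.08. With a Poisson threshold of 1e-07 it was 1.54, and with 0.001 it was 1.12. Windows with at least 20 tags, which need no input, numbered 10708 to 10769 in thinned SM and 12613 in MM. Only SM was thinned, and the part of repeated tags in these differences was not tested. Runs of 3 or more adjacent enriched windows numbered 89 to 109 in SM and 143 in MM, and held 3.68 to 4.39% of the enriched windows of SM and 4.60% of those of MM.

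The lists of enriched windows overlapped in part. Of all 2558150 windows of 1 kb, between 3315 and 3400 were enriched in both libraries. They made up 42.1 to 42.5% of the enriched SM windows and 32.3 to 33.1% of the enriched MM windows. For comparison, 32.4% of the enriched SM windows of the first draw and 30.9% of those of MM were also enriched in SS. With MS, which like SS was less deep than MM, the shares were 29.2% and 28.0%. In the first draw, and counting all SM tags, the 3352 shared windows averaged 2.68 RPKM in SM and 2.93 in MM, and 2.43 in SS and 2.77 in MS. The 6909 windows enriched in MM alone averaged 2.53 in MM and 1.53 in SM, against 1.70 in SS, 1.89 in MS and 0.634 in the input. The 4565 windows enriched in SM alone averaged 2.31 in SM and 1.502 in MM, against 1.66 in SS, 1.83 in MS and 0.647 in the input. These 2 sets were chosen as passing the threshold in 1 library and missing it in the other. A gap between SM and MM in them was therefore built in by that choice. Windows enriched in only 1 of SM and MM still stood more than 2 times above the input in every ChIP library, including the one in which they missed the threshold. Windows also enriched in SS or MS were not left out of these sets.

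At 100 kb the relation of MM to SM to the level of acetylation depended on the library that ranked the windows. Windows with at least 200 input tags (24584 windows) were ranked into 20 equal classes by their SS to input ratio. The MM to SM ratio lay between 0.993 and 1.008 in all 20 classes by SS. In the highest 5% of windows, SM stood at 1.504 times and MM at 1.52 times the input, with an MM to SM ratio of 1.008 (1.005 to 1.011). In the lowest 5% the ratio was 0.996 (0.992 to 1.001). When MS ranked the windows, the ratio fell with the MS level, from 1.018 (1.013 to 1.024) in the lowest class and 1.027 (1.022 to 1.032) in the next to 0.989 (0.985 to 0.992) in class 17, and was 0.998 (0.995 to 1.001) in the highest. The input differed between these classes as well, with 0.299 RPKM in the lowest MS class and 0.524 in the highest. In the lowest and highest SS classes it was 0.368 and 0.497. The part of the input in this trend was not tested.

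The MM to SM ratio varied with the density of input tags, which reflects how much DNA of a region is recovered and mapped without the antibody. In 10 kb windows ranked into 5 equal classes by input tags, the ratio was 1.024 (1.020 to 1.028) in the class with fewest input tags, 1.037, 1.027 and 0.999 in the next 3 classes, and 0.971 (0.970 to 0.972) in the class with most. The class with most input tags held 37.1% of the tags of SM, 36.1% of those of MM and 32.6% of those of the input. Leaving out the enriched windows and 2 kb on each side gave 0.965 in that class. The windows enriched in SS had a ratio above 1 in every class, which also rose and then fell. From fewest to most input tags, their MM to SM ratio was 1.078, 1.091, 1.124 (1.101 to 1.147), 1.085 and 1.078 (1.069 to 1.088). The class with most input tags held 3914 of them. The interval included 1 only among the 63 windows of the class with fewest (0.986 to 1.18). Relative to windows away from enriched ones in the same class, the ratio of SS-enriched windows was 1.05 to 1.12. For windows enriched in MS this relative value was 1.04 to 1.11 in 4 classes and 0.939 in the class with fewest input tags, where the ratio of 68 windows was 0.961 (0.882 to 1.05).

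The same ranking moved MS to SS in the opposite direction. The MS to SS ratio rose from 0.902 (0.897 to 0.906) in the class with fewest input tags to 1.055 (1.054 to 1.057) in the class with most. In the latter class the RPKM was 0.667 in SS, 0.704 in MS, 0.705 in MM and 0.726 in SM. In the former it was 0.106 in SS, 0.0955 in MS, 0.0951 in MM and 0.0928 in SM. The METH-pretreated libraries MM and MS were thus nearly equal in both classes, while SS and SM lay on either side of them. The part of input density in these ratios was not tested.

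**Figure D3:**
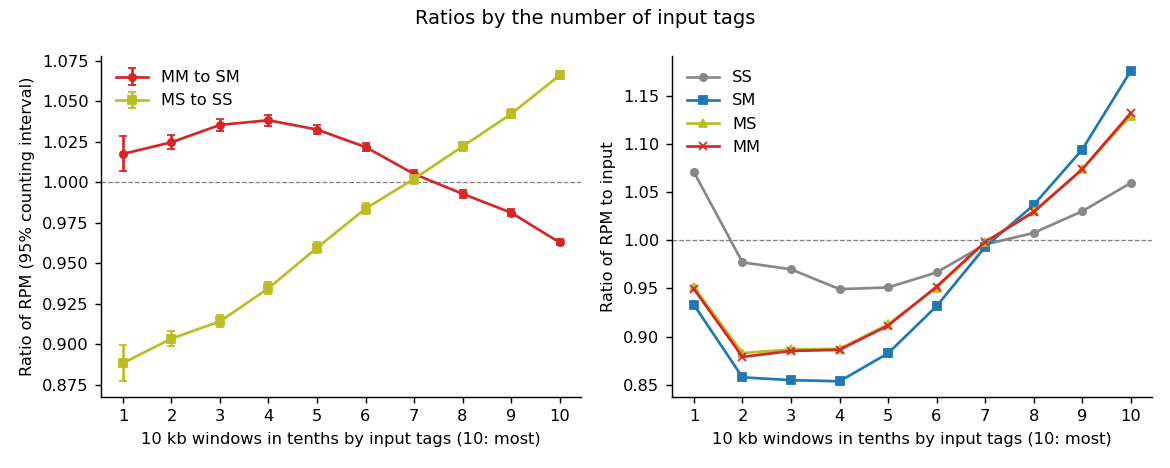
Left, MM to SM and MS to SS ratios with 95% counting intervals in 10 kb windows ranked into 10 equal classes by input tags. Right, the ratio of each ChIP library to input in the same classes. MM to SM falls to 0.963 and MS to SS rises to 1.07 in the class with most input tags, and the MM and MS lines nearly coincide.

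By chromosome, MM and SM differed by no more than a few percent. The ratio lay above 1 on 11 of the 20 chromosomes and below 1 on 9, with the interval above 1 on 8 and below 1 on 7. It was highest on chromosome 2 with 1.013 (1.010 to 1.016), where the RPKM was 0.324 in SM, 0.328 in MM and 0.346 in the input. It was lowest on chromosome 12 with 0.967 (0.962 to 0.972), where the rates were 0.545 in SM, 0.526 in MM and 0.475 in the input. Chromosome 2 was the poorest of the 20 in input tags per kb and chromosome 12 the richest. The SD of the log2 ratio over the 20 chromosomes was 0.0153. The outer 5 Mb of the chromosome ends had a ratio of 0.987 (0.984 to 0.990), and the rest had 1.001. Chromosome X, which was outside the totals used for scaling, had 1.035 (1.029 to 1.041).

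The enriched windows were higher in MM on every chromosome. Their ratio ranged from 1.03 on chromosome 12 (0.993 to 1.07) to 1.12 on chromosome 9 (1.08 to 1.16), with a median of 1.09, and the interval lay above 1 on 19 of 20 chromosomes. Chromosome 1, with 923 enriched windows, the most of any, had 2.02 RPKM in SM and 2.18 in MM, a ratio of 1.080 (1.059 to 1.101). Chromosome 12 was thus lowest both for all tags and for enriched windows. The chromosomes come from the same pair of libraries and are not replicates.

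**Figure D4:**
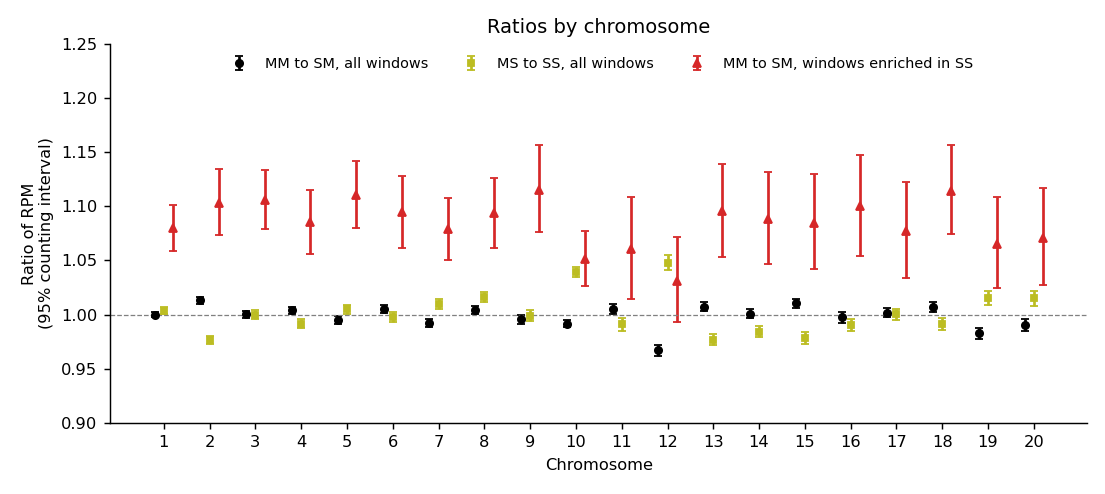
Ratios of RPM by chromosome with 95% counting intervals, for MM to SM over all windows (black circles), MS to SS over all windows (squares) and MM to SM over windows enriched in SS (red triangles). The red triangles lie above 1 on all 20 chromosomes, while the black circles lie between 0.967 and 1.013.

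Single windows named here and below are extremes picked among windows whose interval excluded 1, and their intervals make no allowance for that choice. The 3 windows of 100 kb with the lowest ratio were neighbours on chromosome 3 and formed the longest run in either direction. In chr3:138000001-138300000, SM held 1312 tags and MM 451, a ratio of 0.466 (0.418 to 0.520). The RPKM was 0.354 in SM, 0.306 in SS, 0.199 in MS, 0.165 in MM and 0.420 in the input. Both libraries from METH-pretreated rats were thus below both libraries from saline-pretreated rats, and MS to SS was 0.651 (0.572 to 0.740). MM was below SM in all 15 steps of 20 kb, with ratios from 0.304 to 0.885. The 3 windows had ratios of 0.445, 0.445 and 0.537, and the highest 1 kb window of SM among them held 29 tags, so that the difference did not rest on a single narrow site. The level of SM was 0.842 times and that of MM 0.393 times the input.

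The 200 kb before this run went in the opposite direction. In chr3:137800001-138000000, SM held 97 tags and MM 283, a ratio of 3.96 (3.13 to 5.04). The RPKM was 0.0392 in SM, compared with 0.126 in SS, 0.136 in MS, 0.155 in MM and 0.110 in the input. Here SM alone stood apart, at 0.356 times the input, while the other ChIP libraries were at 1.14 to 1.41 times the input. These windows held too few tags to pass the minimum of 400 and were examined after the data were seen. Beyond the run, in chr3:138300001-138500000, the ratio was 1.13 (0.973 to 1.31).

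The highest 100 kb ratio was found at chr4:99800001-99900000, with 208 tags in SM and 298 in MM and a ratio of 1.94 (1.62 to 2.33). Its RPKM was 0.168 in SM and 0.327 in MM, against 0.385 in SS, 0.255 in MS and 0.383 in the input, so SM was the lowest of the 5 libraries and SS the highest of the ChIP libraries. MM was above SM in all 10 of its windows of 10 kb. The MS to SS ratio there was 0.662 (0.541 to 0.808), the opposite direction to MM to SM. The next 200 kb had a ratio of 1.43 (1.23 to 1.66), so the difference went past the window. The 200 kb before it held 5 tags in SM and 6 in MM. The input was nearly without tags there as well, at 0.00458 RPKM, so that side could not be compared.

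The second highest, chr10:104900001-105000000, had 205 tags in SM and 279 in MM and a ratio of 1.85 (1.54 to 2.22). SM was again the lowest library with 0.166 RPKM, compared with 0.306 in MM, 0.243 in SS, 0.272 in MS and 0.425 in the input. The 200 kb before it had a ratio of 1.17 (1.06 to 1.299) and the 200 kb after it 0.983 (0.889 to 1.09). One of the 3 highest windows of 10 kb, chr10:104950001-104960000, lay within it, with 13 tags in SM and 40 in MM and a ratio of 4.18 (2.19 to 8.51). The third window of 100 kb, chr4:145100001-145200000, had 200 tags in SM and 234 in MM and a ratio of 1.59 (1.31 to 1.93). In none of the 3 did the highest 1 kb window of MM hold more than 15 tags, and all 3 stood below the input in SM and in MM. The longest run of higher windows was 2 windows, as at chr5:117000001-117200000, where the ratio was 1.31 (1.16 to 1.47).

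**Figure D5:**
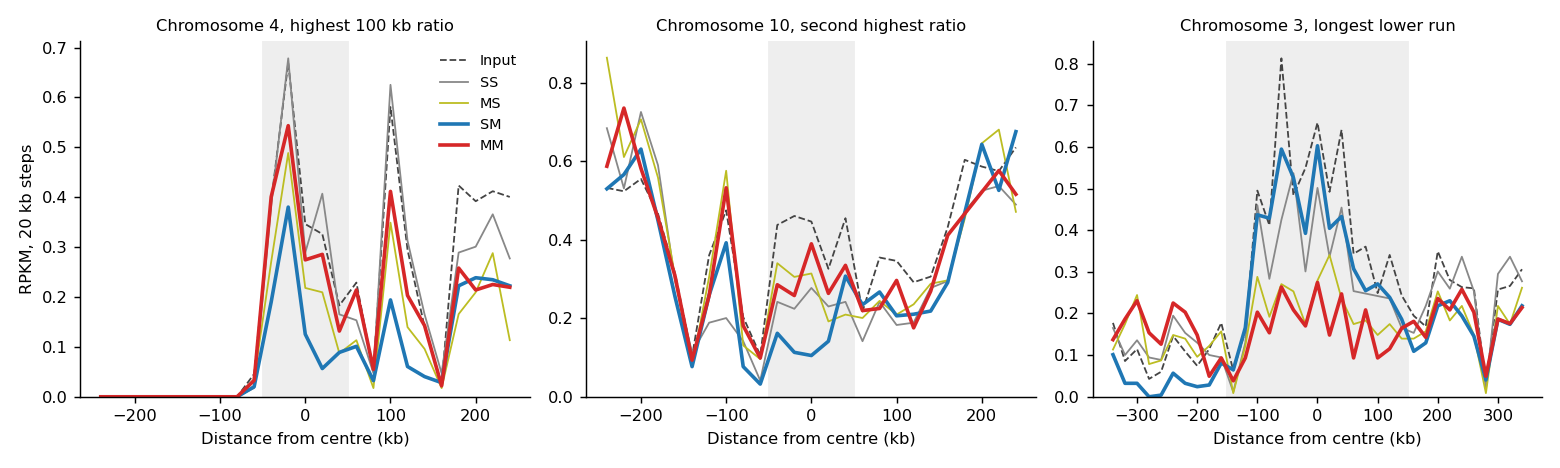
RPKM (tags per kb and 1000000 tags) in steps of 20 kb around the highest and second highest 100 kb windows and the longest run of lower windows (shaded), with 200 kb on each side, in the 5 libraries. SM lies below the other libraries in most of the shaded parts of the first 2 panels, and MM lies below SM throughout the shaded part of the third.

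At 10 kb, 4 of the remaining named windows had no more than 41 tags in either library. The highest, chr15:108960001-108970000, had 12 tags in SM and 39 in MM, a ratio of 4.41 (2.26 to 9.25), and chr3:37870001-37880000 had 12 and 37 tags, a ratio of 4.18 (2.13 to 8.81). The lowest, chr7:5570001-5580000, had 41 tags in SM and 4 in MM, a ratio of 0.132 (0.0344 to 0.366), and chr2:185770001-185780000 had 36 and 4 tags, a ratio of 0.151 (0.0390 to 0.421). At chr17:4280001-4290000, SM held 252 tags and MM 34, a ratio of 0.183 (0.124 to 0.263). Among the ChIP libraries it was high in SM alone, with 20.4 RPM, compared with 3.66 in SS, 4.36 in MS and 3.73 in MM. The input was high there as well, with 209 tags against a median of 78 in the 10 kb windows tested. One 1 kb window within it held 60 of its SM tags, and MM was lower in all 10 of its 1 kb windows.

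At 1 kb, the named windows rested on 21 tags or fewer in the higher library. At chr5:166133001-166134000 and chr7:122976001-122977000, SM held 2 tags and MM 21, a ratio of 14.2 (3.48 to 125) at both. At chr1:135282001-135283000 SM held 20 tags and MM 0, and at chr1:210104001-210105000 SM held 21 and MM 0. The intervals of the MM to SM ratio at these windows of chromosome 1 reached up to 0.275 and 0.261. Windows with equal ratios were named in order of genome position, so further windows may share the ratios given. The input held 11 tags in each of the first 2 windows and 8 and 12 in the others.

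The comparison of METH with saline pretreatment can also be made in rats challenged with saline, and MS to SS shares no library with MM to SM. In the 146 windows of 100 kb at least 1.3-fold higher in MM than in SM, the pooled MS to SS ratio was 0.947 (0.931 to 0.964). In the 51 lower windows it was 0.9499 (0.925 to 0.976), and over all windows tested it was 1.005. The higher and lower windows had median input counts of 531 and 561 tags. Among all 100 kb windows ranked into 10 classes by input, MS to SS was 0.917 in the class with 485 to 545 input tags. It was 0.940 in the class with 545 to 610. Across 22241 windows the log2 ratios had a Pearson correlation of -0.153. It was -0.0271 over 205498 windows of 10 kb and -0.482 over 2390 windows of 1 Mb. Within 5 classes of 100 kb windows by input tags it was between -0.0742 and -0.0436. The windows share the input density that moved with both ratios, with a correlation of -0.248 for MM to SM and 0.394 for MS to SS at 100 kb. Of the 20 chromosomes, 16 lay on opposite sides of 1 in the 2 comparisons.

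In H4K5Ac-enriched windows chosen by libraries outside the comparison, MM to SM and MS to SS each lay above 1, in different sets of windows. In the 12273 windows enriched in SM, which SS and MS did not choose, MS to SS was 1.12 (1.12 to 1.13), and in the 10261 windows enriched in MM it was 1.13 (1.12 to 1.13). Part of this was not particular to enriched windows, since MS to SS was 1.07 over all 1 kb windows with at least 20 tags in SM and MM together and 1.055 in the class of 10 kb windows with most input tags. More than 2 kb from windows enriched in SS or MS it was 0.995 (0.994 to 0.996). SS and MS themselves chose that set. It held 93.9% of the SS tags and 93.4% of the MS tags, so scaling by totals kept its ratio near 1. MM to SM in windows enriched in SS or in MS, as above, was 1.086 and 1.085. Where a compared library chose the windows, the ratio followed that choice. MS to SS was 0.826 in windows enriched in SS and 1.61 in those enriched in MS. MM to SM was 0.846 in windows enriched in SM and 1.39 in those enriched in MM. With 1 library in each of the 4 groups, a higher level in both libraries from METH-pretreated rats cannot be told apart from a difference in precipitation between libraries.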

How the data were processed

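ChIP DNA and input DNA were amplified, size-selected and sequenced by the authors, and Gerald of the Illumina pipeline aligned the first 41 bases. The submitters' processing notes name the build rn4. The sources used here do not say whether repeated tags were removed. Values were deposited as counts, whole numbers of tags in the 1 kb window around each 100 bp step. The counts were neither normalized nor corrected for input. Each tag enters 10 successive steps, so only 1 step in 10 was read, which gave non-overlapping 1 kb windows without any estimate. Windows were scaled by the total of chromosomes 1 to 20. Enrichment used a Poisson threshold within 1 library. Ratio intervals were checked only on counts simulated with binomial error, which leaves out the wider spread found between these libraries. Named windows are the 3 highest and 3 lowest ratios at 100 and at 10 kb and the 2 at 1 kb, with the minimum number of tags and without excess input (over 3 times the median), the longest runs and the extreme chromosomes. Windows, classes and rules were chosen with earlier results of these data known. Genes, transcription start sites and sequences need an rn4 annotation or genome and were not analysed here. Alternatives were other scalings, thinning, grids, limits and choosing libraries. Tools were NumPy 2.4.6, SciPy 1.17.1, pandas 2.3.3, PyArrow 21.0.0 and matplotlib 3.10.9 in Python 3.11.15.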

Additional observations from a re-analysis of the deposited data

Results flagged for a closer look

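In 5 results, MM to SM and MS to SS, the same pretreatment contrast under the METH and the saline challenge, went in opposite directions with 1 library in each group, and the difference between them was not tested. In the class of 10 kb windows with most input tags MM to SM was 0.971 and MS to SS 1.055, and in the class with fewest they were 1.024 and 0.902. On chromosome 2 they were 1.013 and 0.977, and on chromosome 12 they were 0.967 and 1.048. At chr4:99800001-99900000 they were 1.94 and 0.662.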

How the results depend on the processing

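Of 86 alternative values, 3 reversed and 36 moved. The other 47 stayed within the counting interval of a ratio of tags, or within 1.5 times of the value for counts, ratios of counts, the SD and correlations. That wide limit covers 1.08, 1.12 and 1.54 for the ratio of enriched window numbers (1.296) with the sparser windows scaling the input and with Poisson thresholds of 0.001 and 1e-07, and 2025 higher windows of 10 kb with SM thinned (1586 otherwise). At 100 kb, 1.5-fold left 4 windows higher and 3 lower, and a minimum of 200 tags gave 250 and 101. At 10 kb, 3-fold left 58 and 90, and a minimum of 20 tags gave 2937 and 3175. At 1 kb, 3-fold gave 2388 and 4537, and a minimum of 10 tags gave 18019 and 32720. Thinning SM gave 753 lower windows of 1 kb. Scaling on the 10 kb windows under the median in SM and MM together gave 95 higher windows of 100 kb, and ratios of 1.069 in SS-enriched windows, 0.992 (reversed) and 0.981 in the 100 kb windows with the highest and lowest SS to input ratio, and 0.956 and 1.008 in the classes with most and fewest input tags. In SS-enriched windows the ratio was 1.097 and 1.060 with Poisson thresholds of 1e-07 and 0.001. Alternatives added after the data were seen gave 1.119 in windows enriched in SS and MS, 1.136 above the surroundings and 1.053 to 1.118 relative to windows away in the same class by input. With MS choosing the 100 kb windows, the ratio was 0.998 (reversed) in the highest and 1.018 in the lowest. The class with most input tags gave 0.9695 in 1 kb windows, 0.9694 with the grid moved, and 0.965 without enriched windows (added after the data were seen), and the class with fewest gave 1.046 in 1 kb windows. Without thinning, the ratio of enriched window numbers was 0.836 (reversed), since SM was deeper. The correlation of MM to SM with MS to SS was -0.0271 at 10 kb, -0.482 at 1 Mb and -0.0500, -0.0562, -0.0436, -0.0649 and -0.0742 within the classes by input. Immediate early gene start sites were not run. No paired analysis was possible because each group had 1 library. Depth limits single 1 kb windows most, with a median of 4 tags in SM and 3 in MM.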
